A study of Mus musculus with 10 samples.

Results

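The adhesion molecules with which venules take leukocytes out of the blood were followed in visceral fat as a set of 7 genes, chosen by name: Sele, Selp, Selplg, Vcam1, Icam1, Ackr1 and Vwf. All 7 were found among the 16667 genes with normalized counts and the 29242 genes with TPM. All 7 also had a mean of at least 10 normalized counts, as did 14203 genes in all, which were the genes tested. The set was put together with the difference between tumour-bearing and sham mice in view, so that difference is given for these genes as a description, without p-values. The RNA came from visceral fat of 10 mice, all of them wild type, of the C57BL/6 strain and 10 weeks old. Sham surgery was done in 5 of them as controls, and the other 5 were given orthotopic KPC pancreatic tumours. KPC is a mouse model of pancreatic cancer, and orthotopic means that the tumour sat in the pancreas, away from the fat that was sampled. For the tumour line, the time after inoculation and the sex of the mice nothing is stated in the sources used here.

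Leukocytes leave the blood mainly through post-capillary venules, in a sequence of tethering, rolling, arrest and passage through the vessel wall. Selectins on the endothelium catch carbohydrate-bearing ligands on the leukocyte, chemokines held on the endothelial surface activate the leukocyte's integrins, and the integrins then bind immunoglobulin-type receptors on the endothelium. Inflammatory cytokines induce several of these molecules through the transcription factor NF-kappa-B, and Sele and Icam1 are textbook targets of it. In fat, this sequence supplies monocytes and neutrophils during inflammation.

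Promoters are shown because several of these genes are known to be induced together by cytokines. RefSeq's promoter table for GRCm38.p6, the assembly also called mm10, matched 4 of the 7 genes: Sele, Selp, Icam1 and Ackr1. Each sequence runs 5′ to 3′ on the gene's own strand, from 250 bases before the annotated start to 50 after it, 300 bases in all. Capitals mark matches to a kappa-B-type motif, GGNNNTTCC read on both strands.
Sele, chr1:164047984-164048283, plus strand: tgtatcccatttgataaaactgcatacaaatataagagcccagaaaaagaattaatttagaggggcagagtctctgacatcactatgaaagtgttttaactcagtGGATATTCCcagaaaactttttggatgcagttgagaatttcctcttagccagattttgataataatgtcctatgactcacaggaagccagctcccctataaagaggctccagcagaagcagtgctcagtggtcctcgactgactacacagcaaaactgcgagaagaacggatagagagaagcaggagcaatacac
Selp, chr1:164115014-164115313, plus strand: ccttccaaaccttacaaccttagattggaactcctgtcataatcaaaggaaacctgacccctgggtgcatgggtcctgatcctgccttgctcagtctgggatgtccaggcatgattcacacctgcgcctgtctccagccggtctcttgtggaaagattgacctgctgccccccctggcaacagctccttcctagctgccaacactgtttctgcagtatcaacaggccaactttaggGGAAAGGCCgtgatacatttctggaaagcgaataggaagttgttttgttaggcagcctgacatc
Icam1, chr9:21015690-21015989, plus strand: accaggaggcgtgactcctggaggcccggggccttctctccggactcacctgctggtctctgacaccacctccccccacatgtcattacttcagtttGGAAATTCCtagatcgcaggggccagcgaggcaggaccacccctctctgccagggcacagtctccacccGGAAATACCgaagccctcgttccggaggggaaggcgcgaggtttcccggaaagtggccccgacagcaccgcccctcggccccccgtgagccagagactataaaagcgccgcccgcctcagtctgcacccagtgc
Ackr1, chr1:173333454-173333753, minus strand: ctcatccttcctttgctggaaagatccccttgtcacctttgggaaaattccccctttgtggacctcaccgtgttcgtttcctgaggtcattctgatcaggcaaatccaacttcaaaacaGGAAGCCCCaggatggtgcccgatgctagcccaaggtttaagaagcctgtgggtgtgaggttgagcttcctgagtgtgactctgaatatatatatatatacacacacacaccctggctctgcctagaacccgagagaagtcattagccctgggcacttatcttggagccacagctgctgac

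Each of the 4 promoters held at least 1 match, where 18.5% of the 32851 promoters in the table did. Icam1 had matches at -153 and -84, Sele at -145, Ackr1 at -131 and Selp at -14, counted from the annotated start to the match's first base. The motif was chosen knowing that sites of this type have been described in Icam1 and Sele, so the count is a description of these letters and not of binding. An AP-1-type motif, TGANTCA, lay at -73 in Sele and at -139 in Selp, and 7.81% of all promoters held it. The letters TATAAA, searched on both strands and present in 13.6% of promoters, lay at -49 in Sele and at 13 in Icam1. The annotated starts used for Icam1 and Ackr1 lie 45 and 247 bases from the gene starts in GENCODE, so for these genes the windows depend on which start is taken.

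On GRCm38 with the GENCODE vM21 annotation the 7 genes are protein-coding. Sele (ENSMUSG00000026582, chromosome 1, 164048234 to 164057677, plus strand) and Selp (ENSMUSG00000026580, chromosome 1, 164115264 to 164150026, plus strand) are neighbours in the selectin cluster, with 57586 bases between them. Ackr1 (ENSMUSG00000037872, 173331886 to 173333750, minus strand) is also on chromosome 1. Icam1 (ENSMUSG00000037405) spans 21015985 to 21028817 on the plus strand of chromosome 9, and Vcam1 (ENSMUSG00000027962) spans 116109949 to 116129688 on the minus strand of chromosome 3. Selplg (ENSMUSG00000048163) spans 113818536 to 113832644 on the minus strand of chromosome 5, and Vwf (ENSMUSG00000001930) spans 125546774 to 125686679 on the plus strand of chromosome 6. Noncoding genes on the other strand overlap Selp, Vcam1 and Icam1, and no source used here gives the strand setting of the counting. Ackr1 overlaps the 3′ end of Cadm3 on the same strand, and the mean level of Cadm3 was 10.5 TPM in sham mice against 11.4 TPM with tumour.

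Each library summed to 20941242 to 24449863 normalized counts. KPC mouse 1 stood apart from the other libraries, with a median correlation with them of 0.908 where the others had 0.939 to 0.959. Mitochondrial genes took 15.7% of its TPM against 26.3% to 33.3% elsewhere. List medians and the results it moves most are given with and without it. Of the endothelial markers, Pecam1 had a level of 88.5 ± 7.88 TPM in sham mice and 99.5 ± 29.0 TPM in KPC mice (mean ± SD, n = 5 each), so endothelial transcripts were present in both groups. Levels are in TPM, a transcript abundance corrected for gene length, so that genes can be compared with each other. Differences between groups are on the log2(normalized count + 1) scale, KPC minus sham, and the value after ± beside a difference is its SE.

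Vwf was the most abundant of the 7 transcripts and Sele the least, in both groups. Over all 10 mice the mean level was 39.9 TPM for Vwf, 18.5 for Ackr1, 17.1 for Icam1, 13.0 for Selplg, 12.7 for Vcam1, 8.19 for Selp and 0.735 for Sele. Neighbours in this order were compared within each mouse by an exact two-sided sign-flip permutation test over 10 mice, adjusted over the 6 pairs, where the smallest p the test can give is 0.00195. Vwf stood above Ackr1 by 1.11 ± 0.43 (log2 ratio, SD over mice) in 10 of 10 mice, with an adjusted p of 0.00391 in the exact test. Icam1 stood above Selplg by 0.42 ± 0.25 and Selp above Sele by 3.79 ± 0.67, each in 10 of 10 mice and with the same adjusted p. Vcam1 stood above Selp by 0.76 ± 0.79 in 8 of 10 mice, with an adjusted p of 0.0264 in the exact permutation test. That call was lost, at an adjusted p of 0.0527, without sham mouse 1, 3, 4 or 5 or KPC mouse 4 or 5. The mice in the other order were KPC mice 2 and 3, and in KPC mouse 1 Vcam1 and Selp were nearly equal, at 11.34 and 11.31 TPM.

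Ackr1 and Icam1 did not differ beyond their spread, with a log2 ratio of 0.08 ± 0.27 and Ackr1 higher in 4 of 10 mice (adjusted p = 0.558, exact permutation test). Selplg and Vcam1 did not either, with a log2 ratio of 0.02 ± 0.47 and Selplg higher in 4 of 10 mice (adjusted p = 0.900, exact permutation test). Both pairs stood in the other order in sham mice, where Icam1 and Vcam1 had the higher mean. E-selectin was thus a rare transcript in this fat, with a mean of 13.3 normalized counts in sham and 66.4 in KPC mice.

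**Figure D1:**
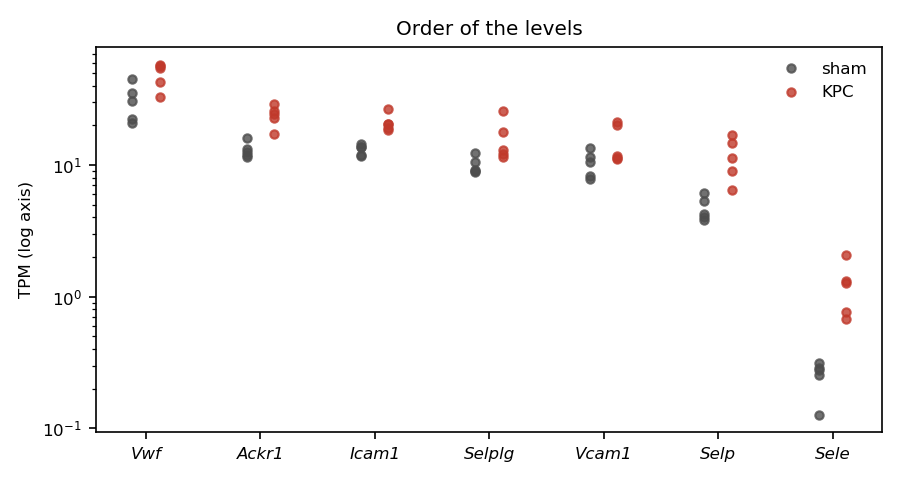
TPM of the 7 genes on a log axis, ordered by the mean over 10 mice, with 1 point a mouse (grey, 5 sham; red, 5 KPC). Vwf lies highest and Sele lowest in both groups, and the levels from Ackr1 to Vcam1 lie close together.

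Sele encodes E-selectin, which endothelium makes on cytokine stimulation and which tethers neutrophils and monocytes. In sham mice 1 to 5 it stood at 0.313, 0.287, 0.127, 0.253 and 0.275 TPM. In KPC mice 1 to 5 it stood at 1.31, 2.07, 1.27, 0.767 and 0.672 TPM. The groups did not overlap on either scale, and KPC mouse 2 was the highest and sham mouse 3 the lowest. The difference was 2.17 ± 0.39, which is 4.50-fold. In normalized counts the groups ran from 6.28 to 18.5 and from 35.1 to 114.5. With a pseudocount of 5 the difference was 1.88. Since this is whole tissue, more cells with the transcript and more transcript per cell cannot be told apart. That holds for the genes that follow too, whichever cells carry them.

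Selp encodes P-selectin, which endothelium and platelets store in granules and bring to the surface within minutes of stimulation. In sham mice 1 to 5 it stood at 3.79, 6.16, 4.25, 4.05 and 5.34 TPM, and in KPC mice 1 to 5 at 11.3, 16.8, 14.8, 6.45 and 8.97 TPM. KPC mice 1 to 3 lay far above the sham mice, while KPC mouse 4 was close to sham mouse 2. In TPM the groups did not overlap, and in normalized counts KPC mouse 4 at 371.7 lay below sham mouse 2 at 382.3. The difference was 1.28 ± 0.27, which is 2.43-fold, with a range of 1.12 to 1.50 when each mouse was left out in turn.

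Platelets carry P-selectin and von Willebrand factor too. Of 9 platelet and megakaryocyte markers, 4 were abundant enough to test and 0 passed, and their summed level was 135 to 196 TPM in the sham group and 144 to 424 TPM in the KPC group. Most of that sum was Pf4, which macrophages also express, and 3 of the 4 tested markers had a positive difference, with a median of 0.46, or 0.22 without KPC mouse 1. The differences were 1.19 for Ppbp, 0.53 for Itga2b and 0.39 for Pf4 (limma adjusted p = 0.18, 0.532 and 0.561). Ppbp did not overlap between groups in TPM, at 1.04 to 1.84 in sham and 2.25 to 6.28 in KPC mice. Gp1ba, the 1 tested marker with a negative difference, stood at 0.420 ± 0.074 TPM in sham against 0.314 ± 0.11 TPM in KPC mice (limma adjusted p = 0.616). The untested Gp9, Gp1bb, Gp5 and Gp6 averaged 0.130, 0.0589, 0.0489 and 0.0403 TPM in the sham group and 0.899, 0.356, 0.108 and 0.0889 TPM in the KPC group. Among mice of a group, r with the tested platelet markers was 0.30 for Selp and 0.03 for Vwf (adjusted p = 0.896 and 0.991, exact permutation within groups). Such a correlation does not measure the part of platelets in the Selp and Vwf levels, which was not tested.

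Selplg encodes PSGL-1, the leukocyte ligand that P-selectin and E-selectin bind, and is the member carried by the blood cell rather than the vessel. In sham mice 1 to 5 it stood at 8.87, 9.0, 10.6, 9.12 and 12.3 TPM, and in KPC mice 1 to 5 at 25.6, 12.1, 11.5, 18.0 and 13.1 TPM. KPC mouse 1 was the highest, and KPC mice 2 and 3 lay just below sham mouse 5 in TPM. In normalized counts the groups did not overlap, with 270.4 to 362 in sham and 377 to 845 in KPC mice. The difference was 0.66 ± 0.21, and without KPC mouse 1 it was 0.46. Pan-leukocyte markers were higher in the same mouse: relative to the sham mean, the 8 genes averaged 2.05 in KPC mouse 1 and 0.27 to 0.70 in the other KPC mice (log2).

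Icam1 encodes ICAM-1, the receptor for the leukocyte integrins LFA-1 and Mac-1, on which leukocytes arrest. In sham mice 1 to 5 it stood at 13.8, 13.7, 11.9, 11.7 and 14.4 TPM, and in KPC mice 1 to 5 at 26.6, 20.6, 18.4, 20.5 and 19.1 TPM. The groups did not overlap on either scale, and KPC mouse 1 was the highest. Among the 7 genes its values were the tightest within groups, with a coefficient of variation of 9.40% in sham and 15.5% in KPC mice. The difference was 0.71 ± 0.14, which is 1.63-fold, and without KPC mouse 1 it was 0.60.

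Vcam1 encodes VCAM-1, the receptor for the integrin VLA-4 of monocytes, lymphocytes and eosinophils. Its sham levels, mice 1 to 5, were 8.22, 10.5, 11.4, 7.90 and 13.5 TPM, and those of KPC mice 1 to 5 were 11.3, 11.2, 11.7, 21.4 and 20.2 TPM. The groups overlapped, since KPC mice 1 to 3 lay within the sham range and KPC mice 4 and 5 above it. The difference was 0.55 ± 0.20, which is 1.47-fold, and it was 0.44 without KPC mouse 4 and 0.44 without KPC mouse 5.

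Ackr1 encodes the atypical chemokine receptor DARC, which venular endothelium uses to carry and display chemokines and which red cells also bear. In sham mice 1 to 5 it stood at 13.3, 16.1, 11.9, 11.5 and 12.5 TPM, and in KPC mice 1 to 5 at 25.6, 24.6, 29.3, 17.2 and 22.7 TPM. The groups did not overlap in TPM, while in normalized counts KPC mouse 4 at 255 lay just below sham mouse 2 at 258. The difference was 0.89 ± 0.19, which is 1.85-fold. Red cell markers, as a mean over 8 genes relative to the sham mean (log2), stood at 2.27, 1.74, 0.39, 0.085 and 0.35 in KPC mice 1 to 5, where Ackr1 stood at 1.08, 1.00, 1.26, 0.31 and 0.79. KPC mouse 4 was the lowest KPC mouse on both, while KPC mouse 3 was the highest for Ackr1 and KPC mouse 1 for red cell markers. Among mice of a group, Ackr1 had an r of 0.58 with these markers (adjusted p = 0.467, exact permutation within groups). Such a correlation does not measure the part of red cells in the Ackr1 level, which was not tested.

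Vwf encodes von Willebrand factor, the clotting protein whose storage in Weibel-Palade bodies also packs P-selectin. The sham levels, mice 1 to 5, were 30.8, 35.2, 21.0, 22.4 and 44.9 TPM, and those of KPC mice 1 to 5 were 43.0, 32.7, 58.0, 54.4 and 56.7 TPM. The groups overlapped, with KPC mouse 2 below sham mouse 2 and KPC mouse 1 below sham mouse 5. Its sham values were the most spread of the 7 genes, with a coefficient of variation of 31.8%. The difference was 0.72 ± 0.23, which is 1.65-fold.

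**Figure D2:**
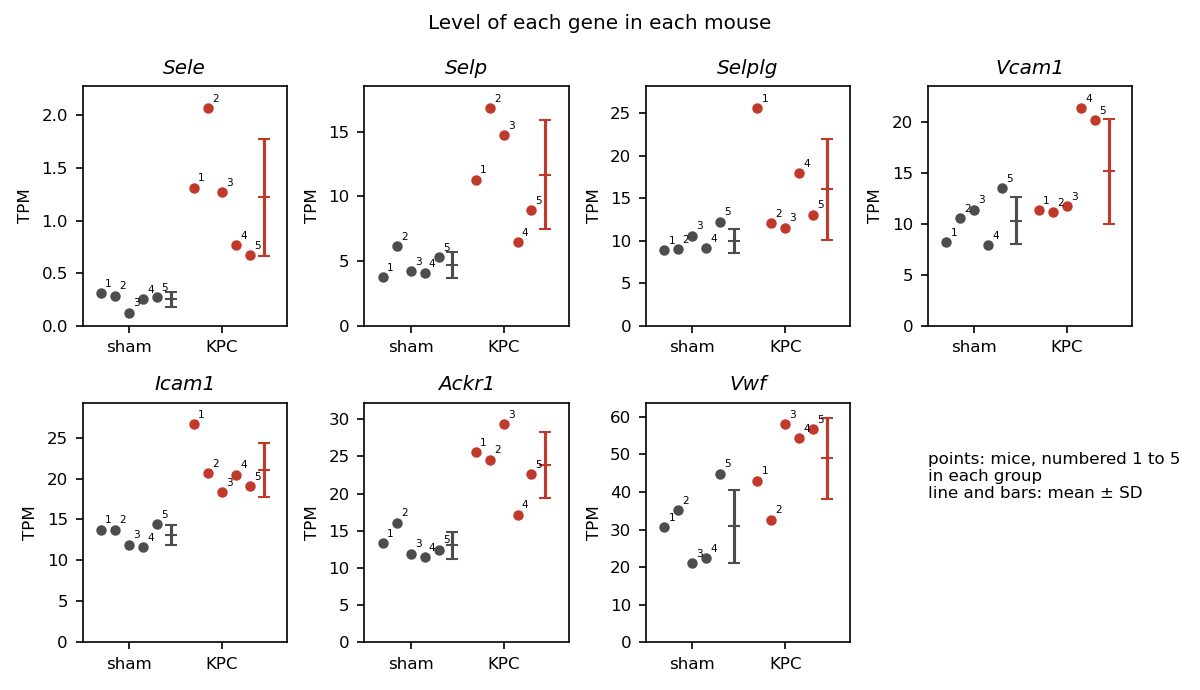
TPM of each gene in each mouse, on axes that start at 0, with the mice of each group numbered 1 to 5 and the mean ± SD beside them. Sele, Selp, Icam1 and Ackr1 show no overlap between groups in TPM, while Selplg, Vcam1 and Vwf do.

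The 7 differences were all positive and had a median of 0.72, beside a median of -0.02 over all genes tested. In normalized counts 3 of the 7 genes had no overlap between groups, Sele, Selplg and Icam1, and 2.75% of all genes tested lay without overlap in that direction. In TPM there were 4, Sele, Selp, Icam1 and Ackr1, beside 1.99% of all genes. Without KPC mouse 1 the count in normalized counts was 3, beside 3.1% of all genes. Without sham mouse 2 or without KPC mouse 4 it was 5, beside 3.13% and 3.31% of all genes. By limma over all genes tested, 0 of the 7 had an adjusted p under 0.05. Of all genes tested, 0.0493% were called higher, 0.00704% lower and 0.0563% in either direction. All 7 had a difference of at least 0.5, which 9.3% of all genes had. Since the genes were chosen on this contrast, nothing is read from any of these counts, and the limma count is no test of the 7. Within the mice that share the first number of their sample titles (1, 2 or 4, whose meaning the labels do not give), all 7 differences were positive for each number, but their sizes differed. For numbers 1, 2 and 4 the difference was 2.39, 2.84 and 1.33 for Sele, 1.51, 1.98 and 0.51 for Selp and 0.77, 1.47 and 0.66 for Ackr1. It was 0.18, 1.57 and 0.31 for Vwf, 0.27, 0.46 and 0.63 for Vcam1, 0.97, 0.38 and 0.33 for Selplg and 0.76, 0.79 and 0.46 for Icam1. Each number holds only 1 or 2 mice of a group.

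**Figure D3:**
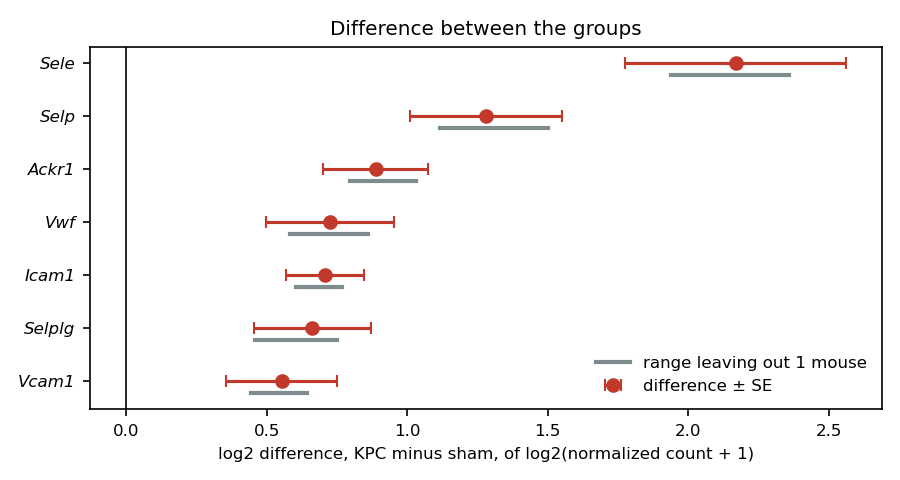
Difference between KPC and sham mice for each gene on the log2(normalized count + 1) scale, as a point with its SE, with a grey line below for the range when each mouse was left out in turn. Sele lies farthest from 0 at 2.17, Vcam1 nearest at 0.55, and no range reaches 0.

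The KPC mice did not carry the same profile. As log2 against the mean of the sham mice, KPC mice 1 to 3 had Sele values of 2.46, 3.08 and 2.39 and Selp values of 1.38, 1.93 and 1.75. KPC mice 4 and 5 had 1.51 and 1.40 for Sele and 0.39 and 0.94 for Selp. Vcam1 ran the other way, at 0.27, 0.22 and 0.30 in KPC mice 1 to 3 and 0.99 in both KPC mouse 4 and KPC mouse 5. Ackr1 was lowest in KPC mouse 4 at 0.31, and Icam1 lay between 0.54 and 1.13 in all 5. KPC mice 1 to 3 carry the first title numbers 1, 1 and 2, and KPC mice 4 and 5 carry number 4, so this division of the KPC mice and that label cannot be told apart.

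**Figure D4:**
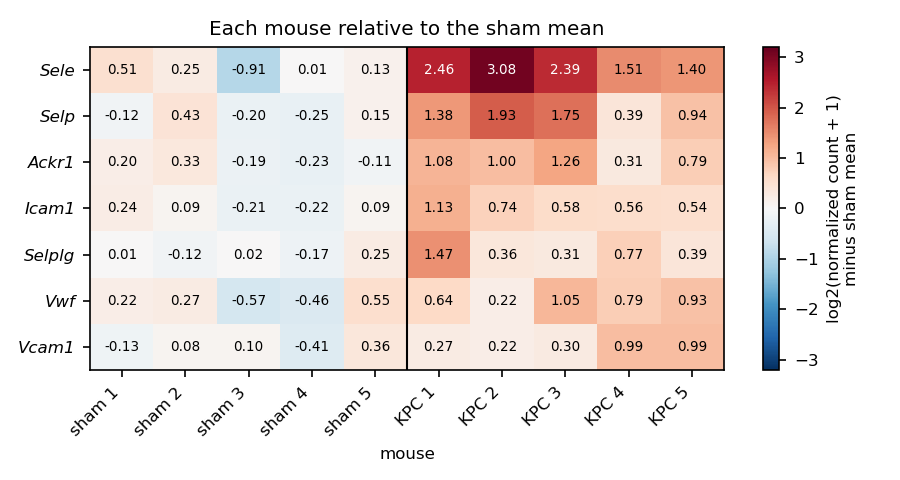
Each mouse relative to the sham mean, in log2(normalized count + 1), with genes in rows and the 5 sham and 5 KPC mice in columns, and darker red for higher values. KPC mice 1 to 3 are highest for Sele and Selp, and KPC mice 4 and 5 for Vcam1.

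How the genes varied together among mice of a group was measured on deviations from the group means over the 10 mice, a comparison that leaves the difference between groups out. Of the 21 pairs, 0 passed after adjustment over the pairs, by Pearson's r or by Spearman's rho, with an exact permutation test over all 14400 reassignments within groups. The highest r was between Selp and Ackr1, at 0.83 with a rho of 0.71 (adjusted p = 0.175 and 0.291, exact permutation, 10 mice). Without the 2 mice farthest from the median, r was 0.80. Sele and Selp, the neighbouring selectin genes, had an r of 0.75 and a rho of 0.71 (adjusted p = 0.309 and 0.291, exact permutation), and r was 0.83 without the 2 farthest mice.

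The lowest r was between Sele and Vcam1, at -0.66 with a rho of -0.59 (adjusted p = 0.309 and 0.373, exact permutation), and -0.63 without the 2 farthest mice. Selplg and Icam1 had an r of 0.68 and a rho of 0.37 (adjusted p = 0.309 and 0.559, exact permutation). That relation rests on few mice, since r was -0.0018 without KPC mouse 1 and sham mouse 5. Without KPC mouse 1 alone, 1 pair passed, Sele and Icam1, with an r of 0.71 (adjusted p = 0.0365, exact permutation). Over its alternatives that pair's adjusted p ran from 0.0365 to 0.860.

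Among 11782 genes with a mean of at least 50 normalized counts, those whose deviations over the 10 mice were most like each member are given as a description. For Sele they were Cox6c2 (r = 0.98), Nipsnap1 (0.95) and Hcar2 (0.94). For Selp they were Nat8f1 (0.94), Ddx19b (0.91) and Prkaa1 (0.87), and for Ackr1 Ddx19b (0.92), Dnpep (0.90) and Tmem147 (0.88). Icam1 was most like Lamp1 (0.99), Ccl19 (0.97) and Bpgm (0.96), and Vcam1 most like Tbx2 (0.96), Rnf216 (0.96) and Acvrl1 (0.95). Selplg was most like Samhd1 (0.99), Ostf1 (0.98) and Cmtm3 (0.97), and Vwf most like Adam10 (0.93), Pcdhb7 (0.92) and Serac1 (0.92). With 10 mice and this many genes searched, values of this size are the top of a long ranking.

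The other genes of the adhesion sequence were taken as 8 lists with 98 genes, of which 91 could be tested. None passed by limma over all genes tested, in either direction. At an unadjusted p under 0.05 by limma, 27 were higher and 3 lower, beside 7.61% of all genes tested higher and 5.91% lower, 13.5% together. Of the 91, 68 had a positive difference (74.7%), beside 46.9% of all genes tested. The median difference was 0.21, beside -0.02 over all genes. In 11 of the 91 the groups did not overlap, with the KPC mice higher, beside 2.75% of all genes. Without KPC mouse 1 these counts were 71 positive and 14 without overlap, the median was 0.20, and 2 genes passed by limma, B3gnt3 and Fermt3. The lists were chosen with earlier results known, so nothing particular to them is read from these shares.

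Leukocyte adhesion receptors had a median difference of 0.50 over 12 genes, 10 of them positive and 0 called, and a median of 0.37 without KPC mouse 1. Itga4, the alpha chain of the integrin that binds VCAM-1, stood at 1.31 ± 0.19 TPM in sham mice against 2.13 ± 0.46 TPM in KPC mice (limma adjusted p = 0.114). Itgal, the alpha chain of LFA-1, stood at 1.49 ± 0.21 against 2.59 ± 0.64 TPM, and Itgam, the alpha chain of Mac-1, at 10.2 ± 2.41 against 20.2 ± 8.69 TPM. The limma adjusted p was 0.148 for Itgal and 0.173 for Itgam.

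Genes that switch leukocyte integrins on had a median of 0.49 over 9 genes, 7 positive and 0 called. Without KPC mouse 1 the median was 0.29, with 6 positive. Fermt3, which encodes kindlin-3, stood at 5.68 ± 0.82 TPM in sham mice against 13.8 ± 8.51 TPM in KPC mice (limma adjusted p = 0.171). Without KPC mouse 1 the limma adjusted p was 0.0273. Over its alternatives the adjusted p for Fermt3 ran from 0.0273 to 0.395. Fyb stood at 7.87 ± 2.17 against 16.1 ± 7.03 TPM and Skap2, an adaptor of the same pathway, at 11.6 ± 1.04 against 19.6 ± 9.02 TPM. The difference of Skap2 was 0.70, and 0.45 without KPC mouse 1.

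Enzymes that build selectin ligands had a median of 0.27 over 13 tested genes of 14, 8 positive and 0 called, and without KPC mouse 1 the median was 0.18, with 11 positive. B3gnt3, a glycan-extending enzyme, stood at 7.33 ± 0.43 TPM in sham mice against 11.7 ± 3.26 TPM in KPC mice. Its limma adjusted p was 0.119, or 0.0425 without KPC mouse 1, and ran from 0.0425 to 0.316 over its alternatives. B4galt1, a galactosyltransferase, stood at 26.2 ± 1.45 against 34.3 ± 6.40 TPM, and Chst2, a sulfotransferase, at 0.919 ± 0.13 against 1.27 ± 0.24 TPM. Fut7, the fucosyltransferase of selectin ligands, was too low to test, at 0.213 ± 0.12 and 0.271 ± 0.066 TPM.

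Other adhesion and junction molecules of endothelium had a median of 0.02 over 14 tested genes of 16, 7 positive and 7 negative, and 0 called. The median was 0.11 without KPC mouse 1, with 9 positive. Esam, a junction molecule, stood at 67.8 ± 4.06 TPM in sham mice against 85.4 ± 18.4 TPM in KPC mice, and Alcam, an immunoglobulin-type receptor, at 38.0 ± 10.4 against 23.1 ± 5.05 TPM. Mcam stood at 237 ± 48.6 against 178 ± 56.8 TPM. Icam2, which resting endothelium carries, stood at 20.4 ± 1.07 against 21.5 ± 5.59 TPM. Madcam1 and Glycam1, addressins of gut and lymph node venules, were too low to test, at no more than 0.997 TPM in any library.

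Genes of the Weibel-Palade body and of haemostatic endothelium had a median of 0.15 over 15 tested genes of 16, 10 positive and 0 called, and without KPC mouse 1 the median was 0.099, with 9 positive. Rab27a, a regulator of granule release, stood at 3.46 ± 1.20 TPM in sham mice against 5.47 ± 1.33 TPM in KPC mice, and Edn1, endothelin 1, at 5.00 ± 0.69 against 7.50 ± 2.78 TPM. Rab3d stood at 67.8 ± 7.60 against 53.1 ± 9.14 TPM. Angpt2, which the same granule stores, stood at 2.66 ± 0.93 against 3.29 ± 1.54 TPM.

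Genes of venous endothelium had a median of 0.14 over 7 genes, 6 positive and 0 called, and a median of 0.27 without KPC mouse 1. Plvap, of fenestrae and venular endothelium, stood at 55.7 ± 8.43 TPM in sham mice against 88.9 ± 21.8 TPM in KPC mice, and Cd200 at 61.5 ± 10.3 against 86.2 ± 16.2 TPM. Lrg1 stood at 163 ± 69.8 against 461 ± 367 TPM, with KPC mouse 1 at 1112 TPM, and its difference was 1.40, or 1.00 without that mouse. Nr2f2, the transcription factor of venous identity, lay on the other side, at 12.9 ± 2.80 against 9.58 ± 1.92 TPM (limma adjusted p = 0.301).

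Inducing cytokines, their receptors and NF-kappa-B genes had a median of 0.38 over 16 tested genes of 19, 16 positive and 0 called. The median was 0.24 without KPC mouse 1, with 15 positive. The cytokines Tnf, Il1a and Lta were too low to test, at no more than 0.339 TPM in any library. Il1b stood at 0.964 ± 0.87 TPM in sham mice against 6.58 ± 11.1 TPM in KPC mice, where the highest mouse had 26.3 TPM. Nfkbia, the inhibitor that NF-kappa-B itself induces, stood at 56.3 ± 9.18 TPM in sham mice against 95.9 ± 25.2 TPM in KPC mice, with no overlap (limma adjusted p = 0.0795). Il1r1, the interleukin 1 receptor, stood at 9.68 ± 1.04 against 17.4 ± 5.21 TPM, and Tnfrsf1b, a receptor for tumour necrosis factor, at 14.4 ± 2.59 against 20.4 ± 3.83 TPM. The limma adjusted p was 0.119 for Il1r1 and 0.189 for Tnfrsf1b. Of 5 genes of ectodomain shedding, which cuts selectins and ICAM-1 from the surface, 4 were positive and 0 called, with a median of 0.10, or 0.25 and 5 positive without KPC mouse 1. Adam8 stood at 1.51 ± 0.32 against 2.16 ± 0.87 TPM, with a difference of 0.48 (limma adjusted p = 0.461). Adam17 stood at 12.5 ± 1.18 against 13.2 ± 1.55 TPM and Adam10 at 25.1 ± 2.45 against 25.8 ± 2.19 TPM.

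Of the marker lists for other cell types, those of leukocytes other than B cells had positive differences throughout and those of mural and muscle cells negative ones, with none called in any. Of 11 pan-endothelial markers, 7 had a positive difference, 0 were called and the median was 0.06, or 0.20 with 10 positive without KPC mouse 1, and their summed level was 552 to 663 TPM in the sham group and 536 to 747 TPM in the KPC group. Cdh5, VE-cadherin, stood at 75.1 ± 6.74 against 73.3 ± 28.1 TPM. Of 8 pan-leukocyte markers all had a positive difference, 0 were called and the median was 0.81, or 0.54 without KPC mouse 1, with 196 to 286 TPM in the sham group and 287 to 979 TPM in the KPC group. Of 8 macrophage markers all were positive with a median of 0.83, or 0.64 without KPC mouse 1. The 5 tested neutrophil markers of 8 were positive with a median of 1.41, or 0.98 without it, and the 7 T cell markers were positive with a median of 0.66, or 0.68 without it. Neutrophil markers summed to 13.5 to 58.9 TPM in the sham group and 18.0 to 254 TPM in the KPC group, with Ly6g listed at 0 in some libraries of both groups. Of 7 pericyte and smooth muscle markers, the mural cells of the vessel wall, 0 were positive and the median was -0.51, or -0.17 with 1 positive without KPC mouse 1. Their summed level was 446 to 2428 TPM in the sham group and 306 to 1078 TPM in the KPC group. Of 7 skeletal muscle markers 0 were positive, with a median of -3.12, or -3.25 without KPC mouse 1. Their sums were 45.3 to 3696 TPM in the sham group and 49.5 to 205 TPM in the KPC group. B cell markers had 1 of 3 tested positive, with a median of -0.33, or -0.27 without KPC mouse 1. Medians were 0.04 for fat capillary, 0.10 for arterial and -0.14 for lymphatic endothelium, -0.14 for mesothelium, -0.05 for adipose progenitors and -0.08 for adipocytes. Without KPC mouse 1 they were 0.02, 0.04, -0.005, -0.16, -0.13 and 0.01 in the same order. Of 6 pancreatic acinar markers 1 was tested, Cela1, with a difference of 0.15, or -0.09 without KPC mouse 1. The untested acinar markers stood at no more than 0.124 TPM in any library. None of the marker lists had a gene at 0 in all libraries. Their part in the differences of the 7 genes was not tested.

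**Figure D5:**
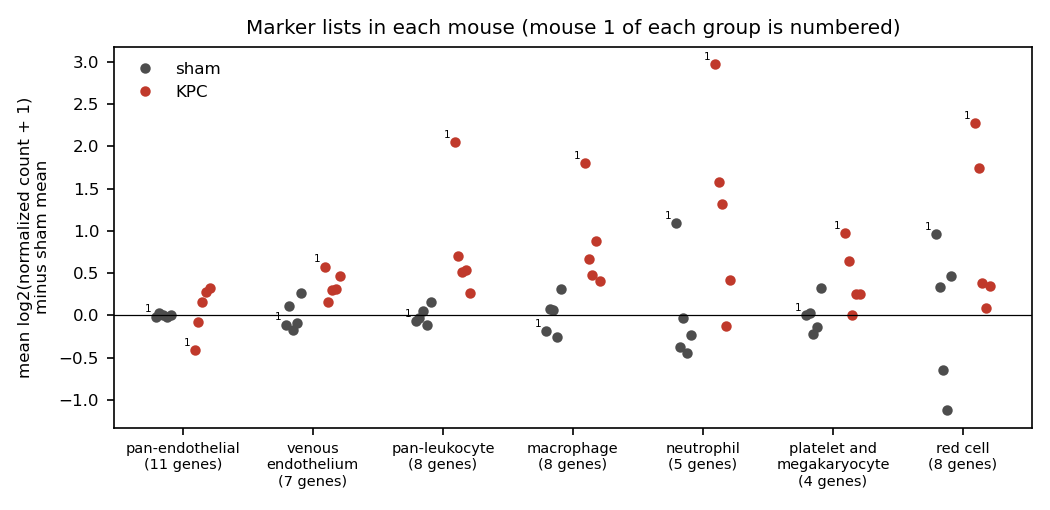
Mean log2(normalized count + 1) of each marker list in each mouse relative to the sham mean, with mouse 1 of each group numbered. KPC mouse 1 is lowest for pan-endothelial genes at -0.41 and highest for pan-leukocyte genes at 2.05 and red cell genes at 2.27.

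Among the marker lists compared with the 7 genes, red cell markers varied with Icam1 among mice of a group. Their summed level was 4748 to 12870 TPM in the sham group and 8550 to 40719 TPM in the KPC group, and all 8 had a positive difference with 0 called and a median of 0.94, or 0.55 without KPC mouse 1. A comparison added after the data were seen took 49 relations of the 7 genes with 7 marker lists. These lists were picked from a longer set and the adjustment was over their 49 relations only, so a pass holds for this choice alone. The 1 relation that passed was Icam1 with red cell markers, with an r of 0.94 and a rho of 0.92 (adjusted p = 0.0340 and 0.0408, exact permutation within groups, 10 mice). Without the 2 mice farthest from the median of the list, r was 0.93, and without KPC mouse 1 it was 0.94. Ackr1, the member that red cells bear, had an r of 0.58 and a rho of 0.64 with the same list (adjusted p = 0.467 and 0.376, exact permutation). Selplg had an r of 0.95 and a rho of 0.81 with macrophage markers (adjusted p = 0.0647 and 0.212, exact permutation), and r was 0.68 without the 2 farthest mice. Its r was 0.90 with pan-leukocyte and 0.73 with platelet markers (adjusted p = 0.300 for each, exact permutation). Without the 2 farthest mice these were 0.39 and -0.02. With the pan-endothelial list, r was 0.64 for Vcam1, 0.31 for Vwf, -0.39 for Ackr1, -0.43 for Selp, -0.55 for Sele, -0.67 for Selplg and -0.74 for Icam1, and 0 of the 7 passed (lowest adjusted p = 0.292, exact permutation). Without the 2 farthest mice r was 0.65 for Vcam1, 0.45 for Vwf, -0.39 for Ackr1, -0.68 for Selp, -0.71 for Sele, 0.51 for Selplg and -0.28 for Icam1.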

How the data were processed

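RNA from the visceral fat of 5 sham and 5 KPC mice was sequenced, and groups and mouse numbers were taken from the labels. Per the labels' protocols, RNA was taken from flash-frozen tissue with RNeasy Plus Mini columns, and Genewiz prepared the Illumina libraries. The authors deposited normalized counts per gene, treated as a signal, and TPM per gene. The submitters' processing notes name the tools DESeq2, DESeq and Salmon and the build mm10, with no versions, and no source used here gives the annotation or strand setting. Of values up to 30 in the normalized table, 31.1% to 47.3% came within 0.05 of a step of a whole multiple of the best-fitting step, so whole reads were not recovered, no count model was run and the depth in reads is not known.

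The test between groups was limma 3.58.1 in R 4.3.3, on log2(normalized count + 1) and fitting a variance trend, over 14203 genes with a mean of at least 10, adjusted by Benjamini and Hochberg with a threshold of 0.05. Fits were tested on simulated data for KPC against sham with 14203 genes: limma called 369 of 500 genes simulated with a log2 change of 1 and 475 of 500 with a change of 2, and 39 of its 883 calls were false. The simulated noise was normal, independent between genes and of equal spread in both groups, and the changed genes had a mean of at least 50. No library was made to stand apart as KPC mouse 1 does, so these shares may not hold for the real data. Levels were ordered by TPM with an exact sign-flip test, and covariation used exact permutations within groups. The labels do not say whether libraries were prepared in batches, and p-values measure only the spread between these samples.

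The 7 genes and all lists were chosen with earlier results of these data known. The genes named from each list are any that passed and the 3 with the smallest unadjusted p. Others were picked with their values in view: Fut7, Icam2, Madcam1, Glycam1, Angpt2, Nr2f2, Tnf, Il1a, Il1b, Lta and the marker genes given by name. Coordinates are from GENCODE vM21 and promoters from RefSeq, both on GRCm38. Alternatives covered the pseudocount, TPM, the filter, quantile normalization, the variance trend, blocks and each mouse left out; list values without KPC mouse 1 were added after seeing the data.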

Additional observations from a re-analysis of the deposited data

Results flagged for a closer look

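Of 62 groups of 5 mice checked in TPM, 5 held a mouse far from the other 4, where chance gives about 1 in 20 groups. All 5 were KPC mouse 1, the library that also stood apart over all genes. Icam1 was 26.6 TPM there, where the next KPC mouse had 20.6 TPM. Fermt3 was 28.7 TPM, next to 12.5 TPM, and Skap2 was 35.4 TPM, next to 18.6 TPM. Lrg1 was 1112 TPM, next to 360.2 TPM. Rab3d was lowest there at 37.3 TPM, next to 53.8 TPM.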

How the results depend on the processing

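The differences of the 7 genes kept their positive sign under every alternative run, and each moved by less than the SD within groups. When each mouse was left out in turn they ran from 1.94 to 2.36 for Sele, 1.12 to 1.50 for Selp, 0.46 to 0.75 for Selplg, 0.44 to 0.64 for Vcam1, 0.60 to 0.77 for Icam1, 0.79 to 1.03 for Ackr1 and 0.58 to 0.86 for Vwf. Sele has no value under the filter on a mean of at least 50, which it does not reach. The count of all genes called was 8, 7 higher and 1 lower. It was 5 on TPM with a pseudocount of 0.1 (4 higher and 1 lower), 3 without a variance trend (2 and 1), 4 with the replicate block and 4 with the title number block (3 and 1 each). Leaving out each mouse gave 2 to 70 calls: 3, 3, 3, 2 and 4 without sham mice 1 to 5, 70 without KPC mouse 1, 14 without KPC mouse 2, 2 without KPC mouse 4 and 5 without KPC mouse 5. Calls in the adhesion lists ran from 0 to 2 and passing pairs of members from 0 to 1, above 0 only without KPC mouse 1. Members whose groups do not overlap ran from 3 to 5, beside 1.99% to 4.47% of all genes tested over the same settings. Selplg over Vcam1 turned to -0.11 without KPC mouse 1, with 0.095 as its highest value when a mouse was left out, and neighbouring levels that passed ran from 3 to 4 of 6. Mice share only a number across groups: deviations of mice with the same number correlated at 0.0051 to 0.19, and not every mouse matched its own number best. The replicate block changed no call in the adhesion lists. The cause of these shifts was not tested. E-selectin's sham values of 6.28 to 18.5 normalized counts limit how precisely its difference can be read.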
